A study of Mus musculus with 8 samples.

Results

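Nfe2l2, which encodes the transcription factor Nrf2, Keap1, which encodes its cytoplasmic inhibitor, and 8 Nrf2 target genes (Hmox1, Nqo1, Gclc, Gclm, Slc7a11, Gsr, Srxn1 and Txnrd1) were examined in bulk RNA-Seq of mouse liver. These 10 genes were chosen by symbol for their place in the pathway, with earlier results of these data known, out of 25239 gene symbols counted. All 10 passed the filter on low counts that left 12977 genes to be tested. The samples were whole livers of 4 control and 4 Smo-KO mice. All were adult male mice with floxed alleles of Smoothened (Smo fl/fl), the transducer of the Hedgehog signal. All had received a choline-deficient, amino acid-defined, high-fat diet (CDA-HFD, 60% of energy as fat) for 6 weeks, so that no liver from a healthy diet was compared. A serotype 8 adeno-associated virus was given 1 week before sacrifice. It carried luciferase in control mice (AAV8-TBG-Luciferase) and Cre recombinase in Smo-KO mice (AAV8-TBG-Cre Recombinase). The TBG promoter is active in hepatocytes, so that in Smo-KO livers Smo was to be lost from hepatocytes while the other liver cells kept their floxed alleles. The labels number the livers 1 to 4 in each group.

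Nrf2 is a basic leucine zipper factor that is made continuously and destroyed quickly. Keap1 presents it to a Cul3 ubiquitin ligase. Electrophiles and oxidants modify cysteines of Keap1, Nrf2 then escapes destruction, enters the nucleus, pairs with a small Maf protein and binds antioxidant response elements in its target genes. Much of this control acts on the protein, which RNA-Seq does not measure. In the liver the targets make glutathione, regenerate glutathione and thioredoxin, and remove quinones and free heme.

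In the genome (build GRCm38, GENCODE M21 annotation), Nfe2l2 lies on the minus strand at chr2:75675513-75704641 and Keap1 on the minus strand at chr9:21229730-21239361. Hmox1 is at chr8:75093621-75100589 (plus strand), Nqo1 at chr8:107388225-107403206 (minus), Gsr at chr8:33652523-33698163 (plus) and Gclc at chr9:77754535-77794485 (plus). Gclm is at chr3:122245557-122270732 (plus), Slc7a11 at chr3:49892526-50443614 (minus), Srxn1 at chr2:152105516-152111376 (plus) and Txnrd1 at chr10:82833951-82897712 (plus). Exons of Keap1 share 510 bases with the antisense gene Gm16754. Exons of Gclm share 296 bases with Gm17494, on the other strand, and with the processed pseudogene Gm6061. The sources used here do not give the strand setting of the counting, and without strand the reads of such overlapping genes cannot be told apart in the shared bases.

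RefSeq promoter windows (build GRCm38.p6, 250 bases before to 50 after the start site) were matched for 7 of the 10 genes, with 9 windows in all because Txnrd1 has 3. They were searched on both strands for the 9-base core of the antioxidant response element, written TGACNNNGC or TGAGNNNGC, which differ in a single base and so cannot match at the same place on the same strand. Of all 32851 promoter windows in the table, 12.4% held the first form, 17.6% the second and 27.8% either. Of the 7 genes with a window, 5 held at least 1 match, and the windows of Keap1 and Nqo1 held none. Srxn1 held 3 matches, 2 of them before the start site, and is therefore shown with all 250 bases before its start (chr2:152105274-152105523, plus strand, 5′ to 3′). For the other 4 genes only the match and its flanks are shown, to let the spelling of the core be compared. Capitals mark the matched 9 bases, and where the match is on the strand opposite to the gene, its reverse complement is in capitals.
Srxn1: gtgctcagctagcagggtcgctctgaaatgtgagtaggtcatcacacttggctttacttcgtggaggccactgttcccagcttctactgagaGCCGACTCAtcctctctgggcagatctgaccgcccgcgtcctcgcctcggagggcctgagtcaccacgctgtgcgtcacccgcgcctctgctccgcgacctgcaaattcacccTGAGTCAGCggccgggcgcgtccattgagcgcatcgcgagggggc
Nfe2l2: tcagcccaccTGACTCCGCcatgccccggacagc
Gclm: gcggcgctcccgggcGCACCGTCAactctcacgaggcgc
Slc7a11: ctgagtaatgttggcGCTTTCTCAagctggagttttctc
Txnrd1: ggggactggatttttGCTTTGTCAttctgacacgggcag
The Nfe2l2 stretch is chr2:75704880-75704913 (minus strand), the Gclm stretch chr3:122245408-122245446 (plus), the Slc7a11 stretch chr3:50443687-50443725 (minus) and the Txnrd1 stretch, from the second of its windows, chr10:82859099-82859137 (plus). The matches began 240 bases before the start site in Nfe2l2, 134 in Gclm, 97 in Slc7a11, 92 in Txnrd1, and 158 and 45 in Srxn1. A match is a spelling and not a bound site: the share of genes with a match cannot be set against the share of windows directly, and enhancers beyond these windows were not searched.

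Library totals were 9177277 to 9999732 reads on genes in control livers and 8203299 to 9543675 in Smo-KO livers, and did not differ by an exact permutation test (two-sided p = 0.257, the smallest p that 4 against 4 livers can give is 0.0286). Levels are counts per 1000000 reads on genes (CPM) scaled by trimmed mean of M values (TMM). A count of 3 reads is 0.297 to 0.366 CPM, depending on the library. Fold changes are log2 ratios of Smo-KO to control with their standard errors (SE), and p-values are from edgeR's quasi-likelihood test with Benjamini-Hochberg adjustment over the 12977 genes. The labels do not say which animal gave each liver beyond its number, so the p-values measure the spread between these samples.

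Smo itself was 8.17, 8.49, 8.74 and 8.21 CPM in control livers 1 to 4 and 5.67, 3.93, 4.27 and 4.37 CPM in Smo-KO livers 1 to 4. The groups did not overlap, and Smo-KO liver 1 kept the most Smo RNA of its group (log2 fold change -0.88, SE 0.16, unadjusted p = 0.000101, adjusted p = 0.0957 by edgeR and 0.00613 by DESeq2; exact permutation test, two-sided p = 0.0286). The deleted exons are not counted separately here, and Smo RNA of cells other than hepatocytes is part of these values. In whole liver RNA, fewer cells of a type and less RNA per cell cannot be told apart, for Smo and for every gene that follows.

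Expression of the Nrf2 targets was lower in Smo-KO than in control livers for 7 of 8 genes, whose Smo-KO means were 75.5% to 90.1% of the control means, while Nfe2l2 RNA itself differed little and Keap1 RNA was also lower. Over all 10 genes, 9 were lower and 1 was higher, and the median log2 fold change was -0.29, beside -0.00 over all genes tested. At an unadjusted p under 0.05, 6 of the 10 were lower (Keap1, Hmox1, Gclc, Gsr, Srxn1 and Txnrd1) and 0 were higher. Of all genes tested, 7.15% were lower and 6.70% higher by that rule, and 50.1% had a log2 fold change below 0. In 3 of the 10 (Keap1, Gsr and Txnrd1) every Smo-KO liver was below every control liver, which held for 4.34% of all genes tested. After adjustment 0 of the 10 and 0 (0%) of the 12977 genes were under 0.05 by edgeR, where 1797 genes had an unadjusted p under 0.05. DESeq2 called 163 genes at an adjusted p under 0.05, of which Txnrd1 was the only member of the 10, and 0.702% of the genes it adjusted were called lower. No member therefore passed the main test, and the differences below are given as sizes with their errors.

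**Figure D1:**
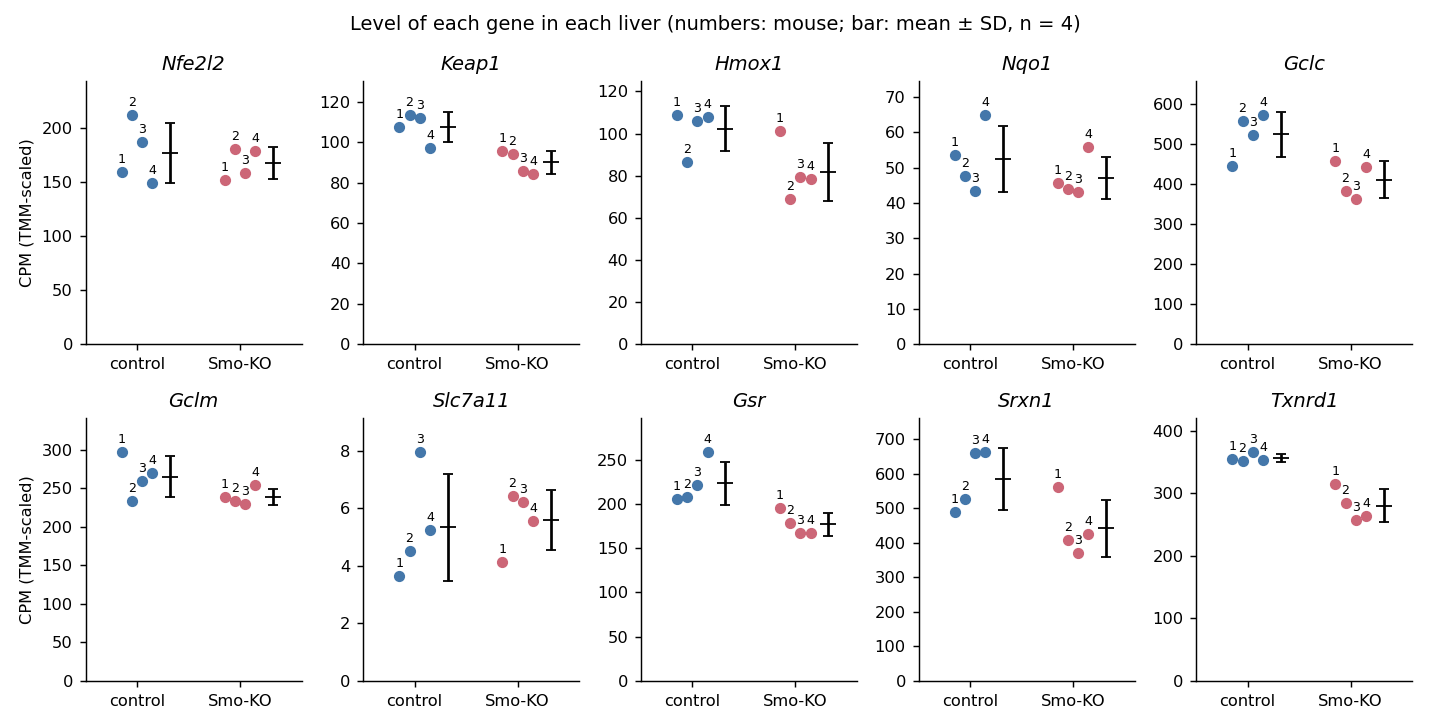
CPM (vertical axis, from 0) of each of the 10 genes in the 4 control and 4 Smo-KO livers, each point 1 liver marked with its number and each bar the mean ± SD. Keap1, Gsr and Txnrd1 show no overlap between the groups, and in Hmox1, Gclc and Srxn1 a single liver, or a few, lie in the range of the other group.

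Nfe2l2 was 159, 211, 187 and 149 CPM in control livers 1 to 4 and 152, 181, 158 and 178 CPM in Smo-KO livers 1 to 4. The Smo-KO values lay inside the control range, with means of 177 ± 28.1 and 167 ± 14.5 CPM (SD, n = 4 each). The log2 fold change of -0.08 (SE 0.12) had an adjusted p of 0.802 by edgeR, and leaving out control liver 2, the highest, turned its sign to 0.022. Keap1 was 107, 113, 112 and 97.1 CPM in control livers and 95.4, 94.1, 85.9 and 84.3 CPM in Smo-KO livers. The ranges did not overlap, although control liver 4 and Smo-KO liver 1 came close. Mean Keap1 was 83.7% of control (log2 fold change -0.26, SE 0.09, unadjusted p = 0.0113, adjusted p = 0.240 by edgeR). The ratio of Nfe2l2 to Keap1 CPM was 1.64 ± 0.171 in control and 1.87 ± 0.218 in Smo-KO livers (SD, n = 4), with overlapping ranges.

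Hmox1 encodes heme oxygenase 1, which opens the heme ring to biliverdin, carbon monoxide and iron. Its level was 109, 86.3, 106 and 108 CPM in control livers 1 to 4 and 101, 68.7, 79.5 and 78.2 CPM in Smo-KO livers 1 to 4. Control liver 2 was low for its group and Smo-KO liver 1 high for its group, and these 2 livers made the ranges overlap. Means were 102 ± 10.7 and 82.0 ± 13.8 CPM (SD, n = 4), or 80.2% of control (log2 fold change -0.32, SE 0.12, unadjusted p = 0.0217, adjusted p = 0.283 by edgeR). The unadjusted p did not stay under 0.05 without control liver 4 (0.0578), Smo-KO liver 2 (0.0745) or Smo-KO liver 4 (0.0537). Without Smo-KO liver 1 the log2 fold change was -0.43 and the unadjusted p 0.00195. Hmox1 is also made by macrophages that take up red blood cells, and their markers are given further on.

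Nqo1 encodes the quinone reductase that carries out the transfer of an electron pair from NAD(P)H. It was 53.6, 47.7, 43.3 and 64.8 CPM in control livers and 45.6, 43.9, 43.2 and 55.8 CPM in Smo-KO livers. In both groups liver 4 was the highest, and the ranges overlapped over most of their length. Mean Nqo1 was 89.9% of control (log2 fold change -0.15, SE 0.13, adjusted p = 0.643 by edgeR). The log2 fold change of Nqo1 was -0.029 without control liver 4, -0.23 without control liver 3 and -0.24 without Smo-KO liver 4.

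Glutathione is built from glutamate, cysteine and glycine, and 4 of the genes serve its supply. Gclc, the catalytic subunit of glutamate-cysteine ligase, which sets the pace of synthesis, was 445, 559, 522 and 572 CPM in control livers 1 to 4 and 458, 382, 362 and 443 CPM in Smo-KO livers 1 to 4. Only control liver 1 reached the Smo-KO range, which overlapped through Smo-KO liver 1. Mean Gclc was 78.4% of control (525 ± 56.8 and 411 ± 46.6 CPM, SD, n = 4, log2 fold change -0.35, SE 0.11, adjusted p = 0.211 by edgeR). Gclm, the modifier subunit of the same ligase, was 297, 234, 260 and 270 CPM in control livers and 239, 233, 230 and 254 CPM in Smo-KO livers. Control liver 2 fell inside the Smo-KO range, and mean Gclm was 90.1% of control (log2 fold change -0.15, SE 0.09, adjusted p = 0.487 by edgeR). Without control liver 1 the log2 fold change of Gclm was -0.092, and without control liver 2 it was -0.20 with an unadjusted p of 0.0494. The ratio of Gclm to Gclc CPM was 0.514 ± 0.107 in control and 0.585 ± 0.0493 in Smo-KO livers.

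Slc7a11, the cystine carrier of the cell membrane, was scarce, with 32, 43, 80 and 53 reads in control livers and 40, 59, 51 and 52 reads in Smo-KO livers. That corresponded to 5.33 ± 1.87 and 5.58 ± 1.04 CPM (SD, n = 4), the Smo-KO values lay inside the control range, and the log2 fold change of 0.05 (SE 0.24) had an adjusted p of 0.948 by edgeR. Its sign changed when control liver 1 or 2 or Smo-KO liver 2 or 3 was left out, so no direction can be read from these livers. Gsr, glutathione reductase, which returns oxidized glutathione to its reduced form with NADPH, was 206, 208, 221 and 259 CPM in control livers and 195, 179, 167 and 167 CPM in Smo-KO livers. Each Smo-KO liver was below each control liver. Mean Gsr was 79.2% of control (log2 fold change -0.34, SE 0.10, unadjusted p = 0.00433, adjusted p = 0.183 by edgeR and 0.0905 by DESeq2).

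Srxn1 and Txnrd1 serve the thioredoxin branch: sulfiredoxin restores peroxiredoxins that peroxide has over-oxidized, and cytosolic thioredoxin reductase reduces thioredoxin with NADPH. Srxn1 was 490, 527, 661 and 663 CPM in control livers 1 to 4 and 561, 409, 371 and 425 CPM in Smo-KO livers 1 to 4. Smo-KO liver 1 stood within the control range and the other 3 Smo-KO livers below it. The mean was 75.5% of control, the lowest of the 10 genes (585 ± 89.9 and 442 ± 82.7 CPM, SD, n = 4, log2 fold change -0.41, SE 0.14, unadjusted p = 0.0123, adjusted p = 0.242 by edgeR). That rank depended on single livers. Without control liver 3 the log2 fold change was -0.339 for Srxn1 and -0.350 for Gclc. Without control liver 4 it was -0.336 for Srxn1 and -0.345 for Txnrd1, and without Smo-KO liver 4 -0.388 for Srxn1 and -0.389 for Gclc. Txnrd1 was 354, 352, 366 and 354 CPM in control livers and 315, 285, 257 and 264 CPM in Smo-KO livers. The control livers lay close together and every Smo-KO liver was below them. Mean Txnrd1 was 78.7% of control (356 ± 6.63 and 280 ± 26.2 CPM, SD, n = 4, log2 fold change -0.35, SE 0.09, unadjusted p = 0.00167, adjusted p = 0.152 by edgeR and 0.0252 by DESeq2).

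Levels can be ordered between genes only after division by length, here the merged exons of each gene in kb. In control livers Srxn1 had the highest level (208 ± 31.9 CPM per kb), then Gclc (139 ± 15.1), Gsr (81.1 ± 8.86), Hmox1 (58.4 ± 6.11) and Txnrd1 (50.3 ± 0.935), all in CPM per kb (mean ± SD, n = 4). Nfe2l2 (46.5 ± 7.42), Gclm (42.2 ± 4.17), Nqo1 (33.7 ± 5.99), Keap1 (22.9 ± 1.56) and Slc7a11 (0.383 ± 0.134 CPM per kb) followed. Ranges of neighbours overlapped in control livers between Hmox1 and Txnrd1, Txnrd1 and Nfe2l2, Nfe2l2 and Gclm, and Gclm and Nqo1, so that the order within this stretch does not exceed the spread, whereas Srxn1, Gclc and Gsr stood apart from one another. In Smo-KO livers Srxn1 was again the highest (157 ± 29.3) and Slc7a11 again the lowest (0.401 ± 0.0749 CPM per kb). Mean Nfe2l2 (44.1 ± 3.82) lay above mean Txnrd1 (39.6 ± 3.69) there, but their ranges overlapped (39.9 to 47.6 and 36.3 to 44.5 CPM per kb). Merged exons count the exons of all annotated transcripts (13.9 kb for Slc7a11), and which of them these livers use was not measured.

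**Figure D2:**
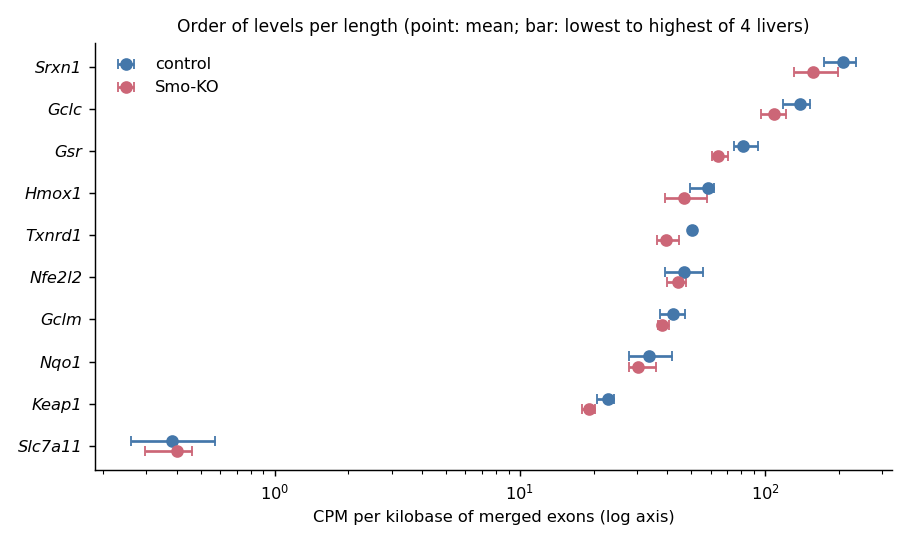
CPM per kb of merged exons (log axis) of the 10 genes, ordered by their control mean, with points at the mean of 4 livers and bars from the lowest to the highest liver of a group. Srxn1 and Gclc lie highest in both groups and Slc7a11 lies far below the rest (means of 0.383 and 0.401 CPM per kb).

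The livers of the Smo-KO group were unequal. Taking for each gene the log2 difference from the control mean, the median over the 10 genes was -0.19 in Smo-KO liver 1, -0.29 in liver 2, -0.34 in liver 3 and -0.30 in liver 4. The same median was -0.06, -0.12, 0.05 and 0.05 in control livers 1 to 4. By this median Smo-KO liver 1 was nearest to the controls: 3 of its 10 genes were below the lowest control liver, against 7, 8 and 6 in Smo-KO livers 2, 3 and 4. The count of genes below the control mean went the other way, with 10 in Smo-KO liver 1 and 8, 9 and 7 in Smo-KO livers 2, 3 and 4. Smo-KO liver 1 had the highest value of its group for 6 of the 10 genes, and Smo-KO liver 3 the lowest for 5. Shares over all genes tested were not computed for these per-liver counts, so the counts only describe the 10 genes. Smo-KO liver 1 was also the liver of its group with the most Smo RNA (5.67 CPM). It had the highest summed macrophage markers (2895 CPM, against 2000 to 2772 CPM in the other livers) and the highest summed endothelial markers (247 CPM, against 119 to 228 CPM) of all 8 livers. The part of these differences in its Nrf2 gene levels was not tested.

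**Figure D3:**
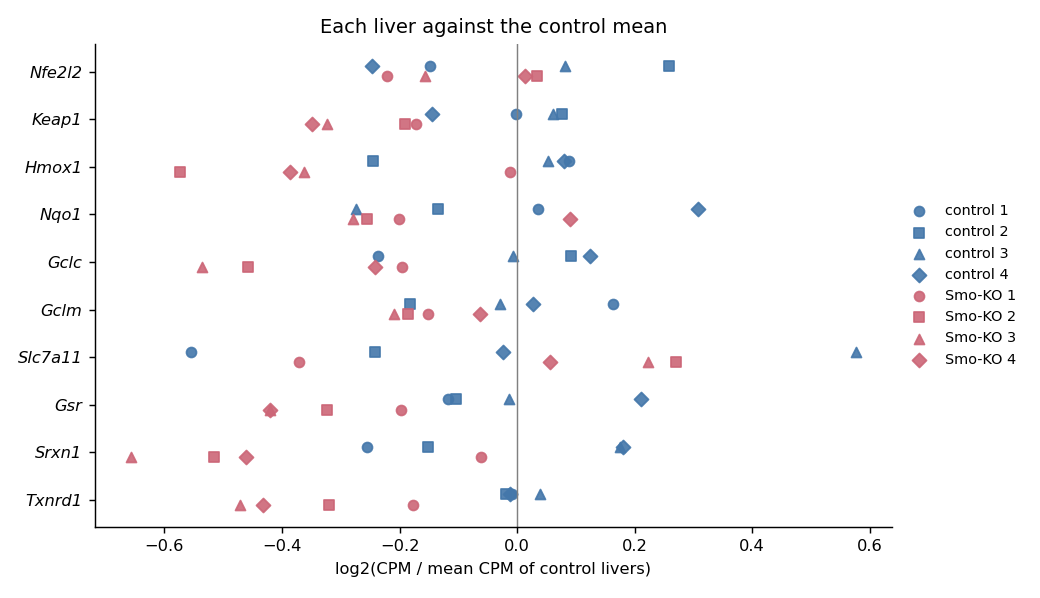
Log2 ratio of CPM to the mean CPM of control livers (horizontal axis) for each of the 10 genes, with each point 1 liver, colours for the groups and shapes for liver numbers. Smo-KO livers lie left of all control livers for Keap1, Gsr and Txnrd1, and Smo-KO liver 1 (red circles) lies to the right of the other Smo-KO livers for 6 genes.

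Correlations between the genes were mixed in sign. Over all 8 livers 31 of the 45 gene pairs had a positive Pearson r of log2 CPM, with a median r of 0.42 and a range from -0.392 to 0.907, while the median over all pairs of genes tested was -0.00. After the group means were removed, 24 of 45 were positive, with a median r of 0.0301. The pairs with the highest r inside the groups were Gsr and Srxn1 (0.813), Srxn1 and Txnrd1 (0.737), and Gclc and Srxn1 (0.730), while Nfe2l2 and Hmox1 (-0.756) and Keap1 and Nqo1 (-0.787) varied in opposite directions. These are descriptions over 8 livers that share library preparation and scaling, and no p-value is given. The genes most like Hmox1 by Pearson r over the 8 livers were Treml4 (r = 0.978, Spearman's rho 0.810), Depdc5 (0.967, 0.905) and Slc35f6 (0.957, 0.857). Those most like Nfe2l2 were Ints2 (r = 0.967, rho 0.905), Dmd (0.959, 0.929) and Thbs1 (0.955, 0.905).

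Among partners and regulators of Nrf2, 15 of 16 genes listed passed the filter on low counts (Nfe2l3 did not), and 2 were lower and 3 higher at an unadjusted p under 0.05, with a median log2 fold change of -0.13. Of all genes tested, 7.15% were lower and 6.70% higher by that rule. Bach1, a repressor that competes with Nrf2 for the same elements and is displaced by heme, was 47.6, 51.8, 44.9 and 44.2 CPM in control livers and 56.3, 58.0, 63.7 and 53.9 CPM in Smo-KO livers. Every Smo-KO liver was above every control liver (log2 fold change 0.30, SE 0.09, unadjusted p = 0.00659, adjusted p = 0.211 by edgeR). The ratio of Nfe2l2 to Bach1 CPM was 3.35, 4.08, 4.16 and 3.37 in control livers and 2.69, 3.11, 2.49 and 3.31 in Smo-KO livers. The ranges of that ratio came close without overlapping. Maff, a small Maf that lacks an activation domain of its own, was 16.3 ± 3.44 CPM in control and 23.2 ± 5.12 CPM in Smo-KO livers (SD, n = 4, log2 fold change 0.52, SE 0.18, adjusted p = 0.247 by edgeR). Pgam5, a mitochondrial phosphatase that binds Keap1, was lower in every Smo-KO than in any control liver (28.4 ± 1.68 and 23.3 ± 2.43 CPM, log2 fold change -0.29, SE 0.10, adjusted p = 0.253 by edgeR). The other 2 genes under that unadjusted p, named after their values were seen, were Cul3, the scaffold of the ligase that destroys Nrf2 (log2 fold change 0.20), and Crebbp, a coactivator (-0.42). Sqstm1, the autophagy receptor that can sequester Keap1 and the gene of this list with the highest CPM, was 1289 ± 115 and 1105 ± 205 CPM (log2 fold change -0.22, SE 0.12, unadjusted p = 0.0966).

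Of 34 further Nrf2 target genes, all tested, 3 were lower and 1 was higher at an unadjusted p under 0.05, and their median log2 fold change was -0.06. Of the 6 genes that make NADPH or belong to the pentose phosphate pathway, 2 were lower at that p and 0 were higher, and their log2 fold changes had a median of -0.18, with Idh1 at -0.03 (unadjusted p = 0.754) and Taldo1 at -0.08 (unadjusted p = 0.399). Of all genes tested, 7.15% were lower by that rule. G6pdx, the NADPH-producing enzyme that opens that pathway, was 24.6, 23.5, 24.1 and 27.99 CPM in control and 23.0, 15.9, 20.98 and 20.3 CPM in Smo-KO livers, without overlap (log2 fold change -0.32, SE 0.12, adjusted p = 0.275 by edgeR). Tkt, a transketolase of the non-oxidative branch, which makes no NADPH, had a log2 fold change of -0.22. Tkt, Idh1 and Taldo1 were named after their values were seen. The 10 glutathione transferases divided evenly by sign, 5 lower and 5 higher, with a median of 0.01. By sign alone, the NADPH group had 6 lower and 0 higher. The 10 detoxification genes had 6 lower and 4 higher (median -0.05), and the 4 export genes 2 and 2 (median -0.03). The remaining 4 genes had 1 lower and 3 higher (median 0.07). Of all genes tested, 50.1% had a log2 fold change below 0. Gstm4 was 189 ± 19.8 CPM in control and 149 ± 28.3 CPM in Smo-KO livers (log2 fold change -0.33, SE 0.13). Gstm1, the gene of the list with the highest CPM, was 3436 ± 483 and 3065 ± 228 CPM (log2 fold change -0.17, unadjusted p = 0.162). Genes of the Gstm family are near copies of one another, and how reads that fit several of them were counted is not given in the sources used here. Ces1g, a carboxylesterase, was higher (393 ± 30.5 and 456 ± 45.4 CPM, log2 fold change 0.22, SE 0.10, unadjusted p = 0.0455). Beside the wider list, the median of the 8 targets was -0.33, and the difference between the lists was not tested.

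**Figure D4:**
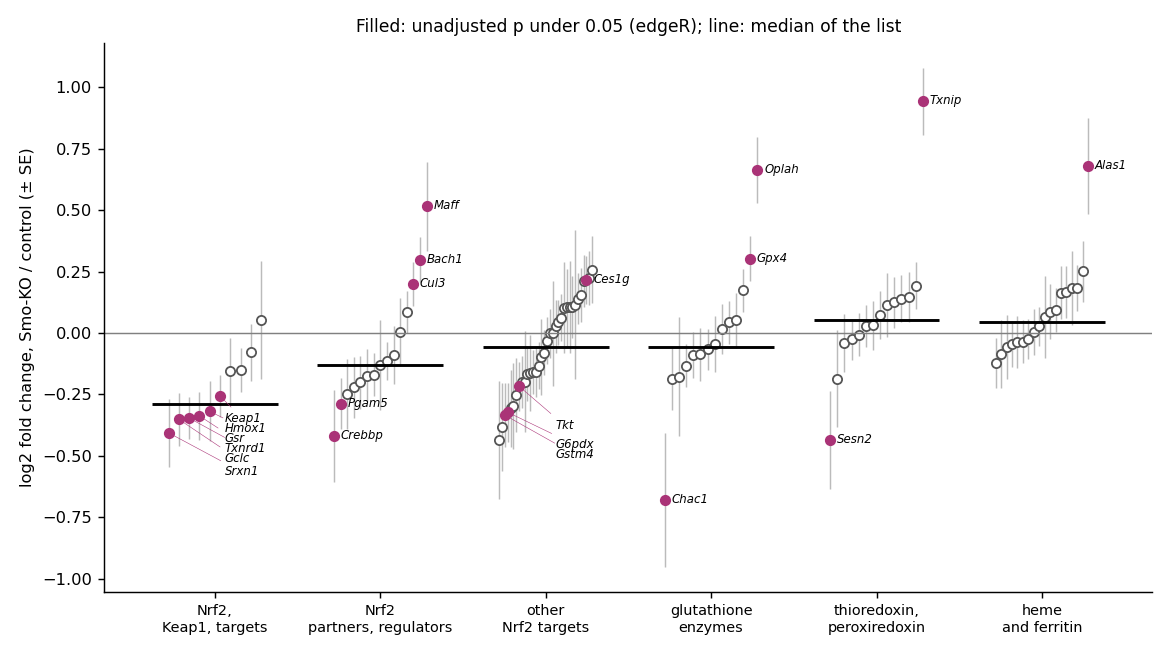
Log2 fold change of Smo-KO against control (± SE) of every tested gene in 6 lists, ordered within each list; filled points have an unadjusted edgeR p under 0.05 and are named, and horizontal lines are list medians. The median of the 10 genes is -0.29, and the medians of the other lists lie between -0.13 and 0.05.

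The counts in the neighbouring antioxidant systems stand beside 7.15% (lower) and 6.70% (higher) of all genes tested at an unadjusted p under 0.05. Of 15 further glutathione genes 14 were tested, with 1 lower and 2 higher at an unadjusted p under 0.05 and a median log2 fold change of -0.06. Oplah, which returns 5-oxoproline to glutamate, was 122, 123, 115 and 117 CPM in control and 145, 207, 238 and 166 CPM in Smo-KO livers, without overlap (log2 fold change 0.66, SE 0.13, adjusted p = 0.116 by edgeR and 0.00202 by DESeq2). Gpx4, which reduces lipid peroxides with glutathione, was 654, 639, 720 and 704 CPM in control and 751, 802, 931 and 866 CPM in Smo-KO livers, also without overlap (log2 fold change 0.30, SE 0.09, adjusted p = 0.206 by edgeR). Chac1, which breaks glutathione down, was 7.01 ± 2.88 and 4.35 ± 0.344 CPM (log2 fold change -0.68, SE 0.27, unadjusted p = 0.0270 by edgeR). It was scarce, with 36 to 89 reads in control and 33 to 45 reads in Smo-KO livers. The groups overlapped, and control liver 4 (3.56 CPM) was below every Smo-KO liver (4.02 to 4.80 CPM). Gpx1, the gene of the list with the highest CPM, had a log2 fold change of 0.17.

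Of 14 thioredoxin and peroxiredoxin genes outside the 10, 1 was lower and 1 higher at an unadjusted p under 0.05, with a median log2 fold change of 0.05. Txnip, which binds and inhibits thioredoxin, was 115, 86.7, 81.6 and 102 CPM in control livers and 162, 207, 217 and 154 CPM in Smo-KO livers. The groups did not overlap. Txnip had an adjusted p of 0.0785 by edgeR (log2 fold change 0.94, SE 0.14) and 6.91e-07 by DESeq2, on either side of the threshold of 0.05. Sesn2, a stress-induced sestrin, was lower (log2 fold change -0.43, SE 0.20, unadjusted p = 0.0483). Prdx1, the gene of the list with the highest CPM, had a log2 fold change of 0.03. Of 18 heme and ferritin genes 0 were lower and 1 was higher at that p, with a median of 0.05. That gene was Alas1, the first enzyme of heme synthesis, at 407, 303, 313 and 393 CPM in control and 399, 753, 690 and 423 CPM in Smo-KO livers (log2 fold change 0.68, SE 0.19, adjusted p = 0.176 by edgeR and 0.0351 by DESeq2). Smo-KO livers 1 and 4 were near the controls for Alas1, and livers 2 and 3 were high. Hpx, which carries heme in plasma, was the gene of the list with the highest CPM (log2 fold change -0.03).

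Thymidine phosphorylase, PGC1α and GDF15 were also examined by the study, and their RNA was measured here. Tymp, which encodes thymidine phosphorylase, was 28.01, 31.5, 30.1 and 19.5 CPM in control and 21.4, 27.4, 13.0 and 20.6 CPM in Smo-KO livers. The ranges overlapped through control liver 4 and Smo-KO livers 1, 2 and 4 (log2 fold change -0.40, SE 0.20, unadjusted p = 0.0650, adjusted p = 0.394 by edgeR). The log2 fold change of Tymp was -0.24 without Smo-KO liver 3. Its unadjusted p was under 0.05 without a filter (0.0381), with the replicate number as a block (0.0410), without control liver 4 (0.0160) and without Smo-KO liver 2 (0.0141). Ppargc1a, which encodes PGC1α, a coactivator of mitochondrial genes, was 7.50 ± 0.499 and 6.98 ± 1.16 CPM (SD, n = 4, log2 fold change -0.10, SE 0.16). Gdf15, a secreted stress factor, was 142, 129, 60.8 and 54.7 CPM in control and 75.9, 57.2, 58.9 and 34.6 CPM in Smo-KO livers. Control livers 1 and 2 were high and the other control livers lay within the Smo-KO range (log2 fold change -0.77, SE 0.30, adjusted p = 0.287 by edgeR).

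Markers of the cells in these livers were summed per liver, and their single genes were counted by the same unadjusted p, under which 7.15% of all genes tested were lower and 6.70% higher. The gene named as leading a list had its highest CPM, without division by length. The 10 hepatocyte markers, led by Alb, came to 32638 ± 2912 CPM in control and 32084 ± 757 CPM in Smo-KO livers (SD, n = 4) and overlapped, so the tissue carried the markers of its label. Of the 10, Cps1, a urea cycle enzyme, was lower in every Smo-KO than in any control liver (79.8% of control, log2 fold change -0.33, unadjusted p = 0.00777), and the other 9 were not under 0.05. The 11 macrophage markers, led by Cd5l, came to 2352 ± 347 and 2400 ± 370 CPM, with overlap and 0 of 11 genes at an unadjusted p under 0.05. The 6 markers of lipid-associated macrophages, led by Lpl, were 739, 833, 859 and 800 CPM in control and 927, 893, 1090 and 931 CPM in Smo-KO livers, higher without overlap, with 3 of 6 genes (Trem2, Cd9 and Lpl) higher at that p. The 9 lymphocyte markers, 8 of them tested and led by Nkg7, were 46.6, 43.9, 39.4 and 52.3 CPM in control and 23.8, 19.7, 34.9 and 31.1 CPM in Smo-KO livers, lower without overlap, with 5 of 8 lower at that p. The part of these 2 differences in the levels of the Nrf2 genes was not tested. Stellate cell markers (9 genes, led by Col3a1) were 960 ± 53.8 and 851 ± 136 CPM with 1 gene lower, endothelial markers (7 genes, led by Clec4g) 208 ± 22.0 and 181 ± 54.7 CPM with 1 gene lower, and cholangiocyte markers (7 genes, led by Spp1) 170 ± 42.1 and 199 ± 47.0 CPM. The 7 neutrophil markers came to 23.7 ± 5.98 and 24.8 ± 2.74 CPM, with 3 of 7 tested. Csf3r had the highest CPM of them (95 to 151 reads per liver), and Ly6g was at 0 in every liver. Of the 7 erythroid markers only Alas2 was tested, and Hba-a1, Hba-a2, Hbb-bs and Hbb-bt were listed at 0 in all 8 livers, so that red blood cell RNA cannot be judged from the globin genes here.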

How the data were processed

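RNA was extracted with Trizol, and libraries were made with the NEB Next Ultra kit and sequenced on an Illumina NovaSeq. The authors deposited whole-number read counts per gene symbol, 1 list per liver. The submitters' processing notes name fastp, STAR 2.7.5, featureCounts 2.0.1 and GRCm38, while the lists end with entries in the form htseq-count writes, so that the counting tool is uncertain; annotation release and strand setting are not given in the sources used here. The 5 entries that name no gene entered neither library size nor test. Of counted reads, 8.33% ± 0.743 (control) and 9.23% ± 0.330 (Smo-KO) fell on no feature (SD, n = 4; exact permutation test, two-sided p = 0.114). Within groups, no library was a copy of another (chi-square per degree of freedom 8.17 to 18.5).

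Counts were tested with edgeR 4.0.16 in R 4.3.3 (filterByExpr, TMM, estimateDisp, glmQLFit, glmQLFTest; genotype as the only term; Benjamini-Hochberg over 12977 genes). SE is that implied by the F statistic, and the prior count for log2 CPM was 2. Alternatives were DESeq2 1.42.0, other size factors, other filters, the replicate number as a block and leaving out each liver. The edgeR procedure was tested on simulated data with changes larger than any seen in the Nrf2 genes, so that test does not cover changes of their size. Exact permutation tests used the assignments of 4 of 8 livers. PCR copies of a molecule could not be removed, since no molecular identifiers are stated.

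The members and lists were chosen with earlier results of these data known. Named genes were the 10 members, Smo, Tymp, Ppargc1a and Gdf15, in each pathway list up to 3 genes with the smallest unadjusted p under 0.05 and the gene with the highest CPM, in each marker list the gene with the highest CPM, and the 3 genes most like Hmox1 and Nfe2l2 by Pearson r. These choices by CPM were made without division by length. Cul3, Crebbp, Tkt, Idh1, Taldo1 and the markers named beside a count fall outside this rule.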

Additional observations from a re-analysis of the deposited data

Results flagged for a closer look

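Hmox1 in control liver 2 was 86.3 CPM, while the other 3 control livers lay between 106 and 109 CPM. The gap to the nearest of them took 0.883 of the range of the group, above Dixon's critical value for 4 samples. It was 1 of 28 groups of 4 values examined (14 genes in both groups), of which chance alone puts about 1.4 past that value.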

How the results depend on the processing

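The 6 members under an unadjusted p of 0.05 were the same 6 genes with other size factors, with DESeq2, with no filter, with at least 10 counts in every sample and with the replicate number as a block. They were 5 to 7 when each liver was left out (Hmox1 lost without control 4, Smo-KO 2 or Smo-KO 4; Gclm gained without control 2). Genes at an adjusted p under 0.05 numbered 0 by edgeR, 163 by DESeq2, 61 without a filter, 8 with the replicate block and 0 to 78 when each liver was left out (78 without Smo-KO 1, 5 without control 1, 4 without Smo-KO 3). Txnrd1 passed by DESeq2 only (-0.34 on the log2 scale), with -0.40 to -0.31 when livers were left out. Smo passed by DESeq2 (-0.87), with no filter (-0.88) and without Smo-KO 1 (-0.997), and ranged from -0.997 to -0.811 when livers were left out. The log2 fold change of Nfe2l2 ranged from -0.15 to 0.022 (0.022 without control 2) and that of Slc7a11 from -0.087 to 0.32 when livers were left out, so their signs turned. The causes were not tested. Of 168 alternative values, 159 kept direction and side of the threshold. The replicate numbers were not taken to pair the livers, since not every same-numbered pair's deviations correlated above 0.1. The values were 0.104, 0.187, 0.0611 and 0.113, and 3 of 4 control livers correlated best with their own number. These values do not settle whether the livers were paired. The block put Tymp under an unadjusted edgeR p of 0.05 (0.0410) and changed no call of the 10 members or Smo. Slc7a11 had the fewest reads of the 10 members (32 to 80 per liver).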
